A study of Mus musculus with 14 samples.

Results

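The Otx genes and their partners in midbrain-hindbrain patterning were followed through granule neuron progenitors (GNPs) that carry different doses of Chd7, a gene for an ATP-dependent chromatin remodeller. The set holds 10 genes of the 41381 in the expression table: the paralogs Otx1 and Otx2, the homeobox genes Gbx2, En1 and En2, the paired-box genes Pax2, Pax5 and Pax8, and the ligand genes Fgf8 and Fgf17. They were listed by their place in patterning and selected on measured values too, since their TPM by genotype and batch was already known, in particular the opposite behaviour of Otx1 and Otx2. Their levels and changes are therefore given as description, with no p-value, and calls of the fit on them are counted only beside the share over all genes. The genes around them, listed with the same knowledge, carry p-values.

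GNPs are the proliferating cells of the external granule layer that produce cerebellar granule neurons. In RNA sequencing of total RNA, 14 libraries were made from GNPs freshly isolated from cerebella of mice at postnatal day 7, of strain C57BL/6 in the labels of the later libraries, C56Bl6/J in those of the 7 earlier ones and C57BL/6N in the study's methods. The 5 WT libraries are labelled Chd7 wild type or, in the later ones, Atoh1-Cre negative. The 5 Het libraries are Atoh1-Cre::Chd7 f/+ and the 4 Hom libraries Atoh1-Cre::Chd7 f/f. For the earlier libraries these alleles, and Chd7 f/f for WT, are named in the study and not in the labels. Atoh1-Cre acts in the rhombic lip lineage, so other cell types in the preparation keep their Chd7 alleles. Nothing in the labels ties a library to 1 animal or to a pool, so errors measure the spread between libraries. The study sequenced them in batches of 8 (WT 1 to 3, Het 1 to 3, Hom 1 and 2) and 6 libraries. Values are in TPM, transcripts scaled to a constant library total, which correct for transcript length and so allow levels of different genes to be compared, but keep no read depth.

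Otx2 and Gbx2 encode homeodomain proteins that repress each other on either side of the midbrain-hindbrain boundary, and the isthmic organiser forms where their domains meet. Fgf8 is the organiser's main secreted signal and Fgf17 a related ligand. En1, En2, Pax2, Pax5 and Pax8 encode transcription factors expressed around the organiser, which help to maintain Fgf8 and to specify midbrain and cerebellum. Later, Otx1, Otx2, En1 and En2 are expressed in the developing cerebellar cortex, and Pax2 marks precursors of its inhibitory interneurons.

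The labels were checked before the members were described. Chd7 itself was at 176 ± 62.3 TPM (SD, n = 5) in WT, 157 ± 17.2 (n = 5) in Het and 158 ± 26.3 (n = 4) in Hom. Its log2 change in Hom was 0.41 within batch 1, against the label, and -0.77 within batch 2, so the groups are called below the libraries labelled WT, Het and Hom. Cre removes only part of a floxed gene, and a gene-level TPM covers all of it, so this level may not check the labels. Of the granule lineage factors, Atoh1, Barhl1, Barhl2, Pax6, Zic1, Zic2 and Neurod1 were above 20 TPM in every library, which fits the labelled cell type. All 12 Hox genes examined, which mark the hindbrain behind the cerebellum, were under 1 TPM in every library, and so were 5 of 8 midbrain neuron markers.

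Sequences at transcription starts of the members, some of them inside the gene, were read from RefSeq (GRCm38.p6). Windows that reach mostly upstream of a transcription start were found for 6 members: Otx2, Gbx2, En1, Pax2, Pax5 and Pax8. No window was used for Otx1, En2, Fgf8 or Fgf17. The windows shown belong to Otx2 and En1, the members with a window whose levels were higher in every library labelled Hom than in any labelled WT. The first is on the minus strand and the second on the plus strand, both 5′ to 3′. Capitals mark TAATCC, the core bound by Otx-type homeodomains, and TAATTA, the core bound by En- and Gbx-type homeodomains, each searched on both strands.
Otx2, chr14:48665060-48665359: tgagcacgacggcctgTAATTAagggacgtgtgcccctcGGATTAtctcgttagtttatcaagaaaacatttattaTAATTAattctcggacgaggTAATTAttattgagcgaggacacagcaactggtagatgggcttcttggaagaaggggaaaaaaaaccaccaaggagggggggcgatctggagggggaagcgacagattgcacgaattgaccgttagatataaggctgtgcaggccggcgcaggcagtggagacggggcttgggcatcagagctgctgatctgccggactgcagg
En1, chr1:120602237-120602536: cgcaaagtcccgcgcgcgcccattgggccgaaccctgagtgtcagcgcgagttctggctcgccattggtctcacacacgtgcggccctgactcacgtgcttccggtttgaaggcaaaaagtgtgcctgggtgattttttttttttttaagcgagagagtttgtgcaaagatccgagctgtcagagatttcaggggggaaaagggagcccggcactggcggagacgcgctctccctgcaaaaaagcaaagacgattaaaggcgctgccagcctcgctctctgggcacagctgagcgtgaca
The Otx2 window held 3 copies of TAATTA and 1 of TAATCC, the latter read as its reverse complement. The En1 window held neither. Of the other 3 Otx2 windows, which overlap in part, 1 held a single TAATTA and the others neither core. The Otx2 window shown is thus the one with the most matches. All windows of Otx2 lie within the annotated span of the gene, from 48657677 to 48673819. No window of Gbx2, Pax2, Pax5 or Pax8 held either core. Among all 32851 windows, 7.06% held TAATCC and 5.29% held TAATTA. The En1 window had 23 CpG dinucleotides and the Otx2 window 16, against a median of 7. These matches describe the letters and not binding.

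Otx1 was low in all 4 libraries labelled Hom. Otx1 (ENSMUSG00000005917; GRCm38 chromosome 11, 21994764 to 22002897, minus strand, protein coding) encodes an orthodenticle-type homeodomain factor of forebrain, midbrain and cerebellum. Its TPM was 16.27, 23.66, 18.98, 28.84 and 39.49 in WT 1 to 5. The Het libraries 1 to 5 had 16.38, 21.54, 22.66, 21.41 and 26.79, whereas Hom 1 to 4 had 4.29, 2.61, 3.14 and 3.91. Every library labelled Hom lay below every other library, and the libraries labelled WT and Het overlapped. The mean in Hom, 3.49 ± 0.756 TPM (SD, n = 4), was 0.137 times that in WT, 25.4 ± 9.19 (n = 5). The Het mean was 21.8 ± 3.72 (n = 5). On the log2(TPM + 1) scale, with batch as a term, the change was -2.55 (SE 0.19) in Hom and -0.17 (SE 0.17) in Het. Among the tested genes of each group, ordered by mean TPM, Otx1 stood at percentile 58.5 in WT, 54.6 in Het and 23.2 in Hom. The mean level was higher in batch 2 than in batch 1 in WT (34.2 against 19.6 TPM) and Het (24.1 against 20.2 TPM). The Hom change was -2.22 in batch 1 alone and -2.95 in batch 2 alone.

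Otx2 moved the other way. Otx2 (ENSMUSG00000021848; chromosome 14, 48657677 to 48673819, minus strand) encodes the paralog needed for forebrain and midbrain identity, which is also expressed in choroid plexus and in GNPs. Its TPM was 80.42, 74.87, 72.61, 68.84 and 106.03 in WT 1 to 5. The Het libraries 1 to 5 had 74.64, 80.68, 77.04, 61.55 and 104.15, whereas Hom 1 to 4 had 120.54, 117.03, 131.22 and 143.69. The lowest library labelled Hom stood above the highest labelled WT, WT 5, and above the highest labelled Het, Het 5. The Hom mean, 128 ± 12 TPM (SD, n = 4), was 1.59 times the WT mean of 80.6 ± 14.8 (n = 5), and the Het mean was 79.6 ± 15.5 (n = 5). The log2 change was 0.66 (SE 0.14) in Hom and -0.02 (SE 0.13) in Het. Within batches it was 0.64 and 0.68 in Hom, and 0.03 and -0.09 in Het.

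**Figure D1:**
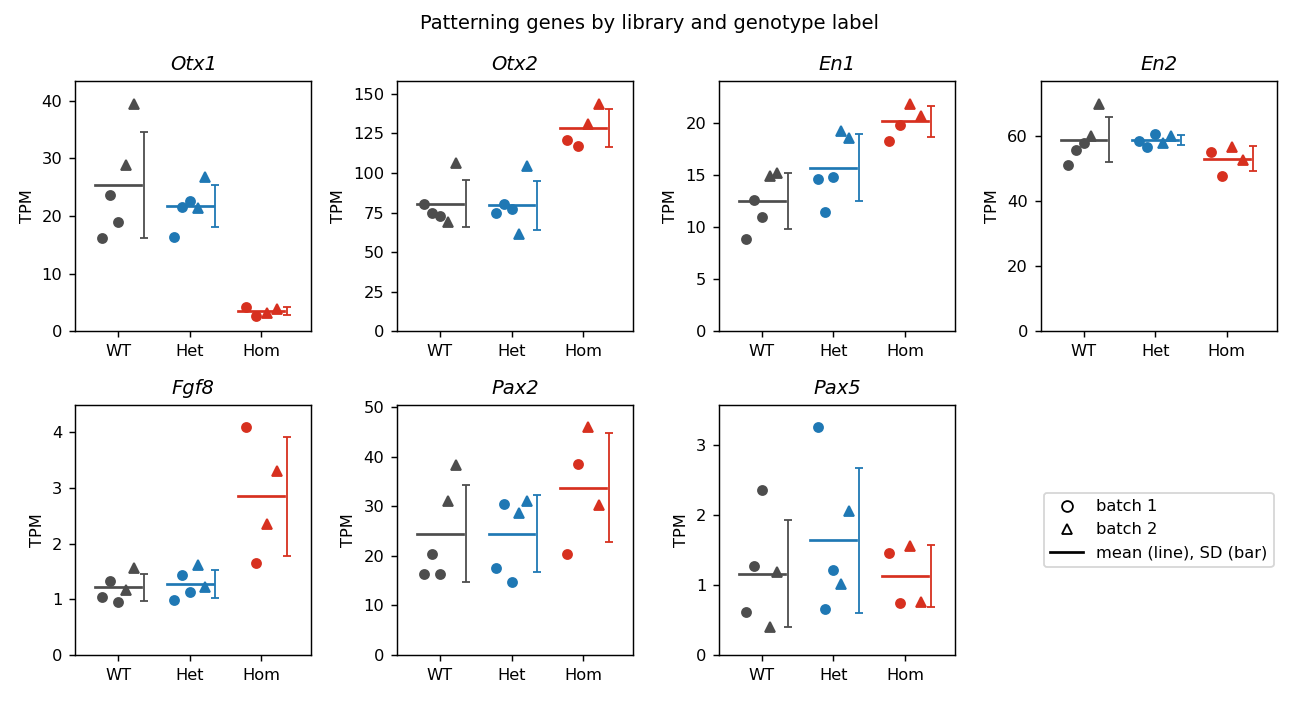
TPM (vertical axis, from 0) of the 7 members that passed the filter on low values, by genotype label, with 1 point per library (circles batch 1, triangles batch 2), a line at the group mean and a bar of 1 SD (n = 5, 5 and 4). Otx1 in Hom lay between 2.61 and 4.29, under every other library, while Otx2, En1 and Fgf8 in Hom lay above every WT library.

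The paralogs thus changed their balance in the libraries labelled Hom. Otx1 amounted to between 20.2% and 41.9% of Otx2 in the libraries labelled WT, to between 21.9% and 34.8% in Het, and to between 2.23% and 3.56% in Hom. In absolute terms the rise of Otx2 exceeded the fall of Otx1: the summed TPM of both had a median of 97.7 in WT, 99.7 in Het and 130 in Hom. The sums overlapped, since WT 5 reached 146 and Het 5 reached 131 while the Hom libraries ran from 120 to 148. Otx2 was above Otx1 in all 14 libraries.

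**Figure D2:**
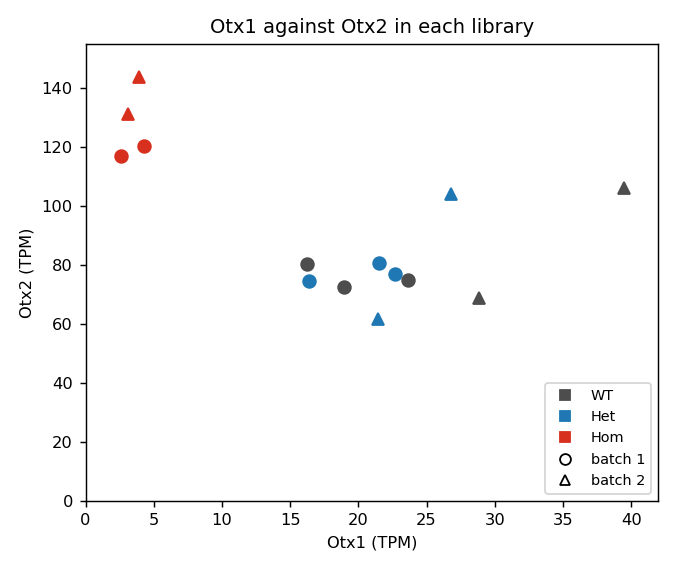
Otx2 TPM (vertical) against Otx1 TPM (horizontal) in each of the 14 libraries, coloured by genotype label, with circles for batch 1 and triangles for batch 2. The 4 libraries labelled Hom form their own group at Otx1 under 5 and Otx2 above 115, while libraries labelled WT and Het mix.

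The engrailed genes, homeobox genes that act downstream of the organiser, differed from each other. En1 (ENSMUSG00000058665; chromosome 1, 120602418 to 120607992, plus strand) was at 8.81, 12.61, 10.94, 14.93 and 15.15 TPM in WT 1 to 5. It was at 14.59, 11.47, 14.76, 19.21 and 18.5 in Het 1 to 5, and at 18.28, 19.82, 21.82 and 20.6 in Hom 1 to 4. Each library labelled Hom exceeded each labelled WT, and the libraries labelled Het, with a mean of 15.7 ± 3.17 (SD, n = 5), overlapped both groups. The means were 12.5 ± 2.69 TPM in WT (n = 5) and 20.1 ± 1.48 in Hom (n = 4), a ratio of 1.61. The log2 change was 0.63 (SE 0.11) in Hom and 0.31 (SE 0.11) in Het, and both kept their sign within each batch (0.78 and 0.47 in Hom, 0.31 and 0.31 in Het). En2 (ENSMUSG00000039095; chromosome 5, 28165694 to 28172166, plus strand) was the second most abundant member, at 58.8 ± 6.96 TPM in WT (SD, n = 5), 58.6 ± 1.6 in Het (n = 5) and 52.8 ± 3.86 in Hom (n = 4). It ran from 50.95 to 69.75 in WT and from 47.55 to 56.36 in Hom, so these groups overlapped, while every library labelled Hom was below the lowest Het library at 56.5. Its log2 change was -0.16 (SE 0.07) in Hom and 0.00 (SE 0.07) in Het. In all libraries labelled WT and Het Otx1 was more abundant than En1, and in all 4 labelled Hom En1 was more abundant than Otx1.

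Of the isthmic ligands, Fgf8 was present at a low level and Fgf17 was close to absent. Fgf8 (ENSMUSG00000025219; chromosome 19, 45736798 to 45742915, minus strand) was at 1.05, 1.33, 0.96, 1.17 and 1.56 TPM in WT 1 to 5 and at 0.98, 1.44, 1.13, 1.62 and 1.22 in Het 1 to 5. In Hom 1 to 4 it was at 4.09, 1.65, 2.36 and 3.31. All libraries labelled Hom were above all others, but Hom 2 exceeded the highest Het library, Het 4, by little. The mean was 2.85 ± 1.07 TPM in Hom (SD, n = 4) against 1.21 ± 0.238 in WT (n = 5) and 1.28 ± 0.254 in Het (n = 5), and the log2 change was 0.75 (SE 0.19) in Hom and 0.04 (SE 0.18) in Het. At such levels the pseudocount of 1 compresses the change, and with a pseudocount of 0.1 it was 1.09. Fgf17, on chromosome 14, ran from 0.16 to 0.3 TPM in WT, from 0.07 to 0.37 in Het and from 0 to 0.24 in Hom, and no library reached 1 TPM.

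Gbx2, the classical opponent of Otx2, was hardly detected. Its TPM was at most 0.62 in WT and 0.51 in Het, and among the libraries labelled Hom it was 0, 1.05, 0.14 and 0.21. The groups overlapped, and 2 of the 14 libraries were listed at 0. The overlapping transcript D130058E05Rik on the opposite strand was also under the filter. The study gives an approximate read number per sample, but TPM keeps no depth of each library. No limit of detection was worked out for Gbx2 and Fgf17.

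Among the paired-box members, Pax2 was the abundant one and was spread widely in every group. Its TPM (ENSMUSG00000004231; chromosome 19, 44756045 to 44837871, plus strand) was 16.4, 20.3, 16.39, 31.17 and 38.3 in WT 1 to 5 and 17.66, 30.42, 14.71, 28.74 and 31.1 in Het 1 to 5. In Hom 1 to 4 it was 20.44, 38.59, 45.95 and 30.26. All 3 groups overlapped, with means of 24.5 ± 9.8 (SD, n = 5), 24.5 ± 7.73 (n = 5) and 33.8 ± 11 (n = 4). The log2 change was 0.41 (SE 0.22) in Hom and 0.02 (SE 0.21) in Het. The Hom change was 0.65 in batch 1 and 0.11 in batch 2. It fell to 0.18 without Hom 2, and with the mean levels of endothelial and Purkinje markers as covariates it was -0.04. Pax5 ran from 0.4 to 2.35 TPM in WT, from 0.66 to 3.25 in Het and from 0.74 to 1.56 in Hom, with changes of 0.04 (SE 0.31) in Hom and 0.27 (SE 0.29) in Het. Pax8 was under 0.3 TPM in every library and listed at 0 in 6 of them.

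**Figure D3:**
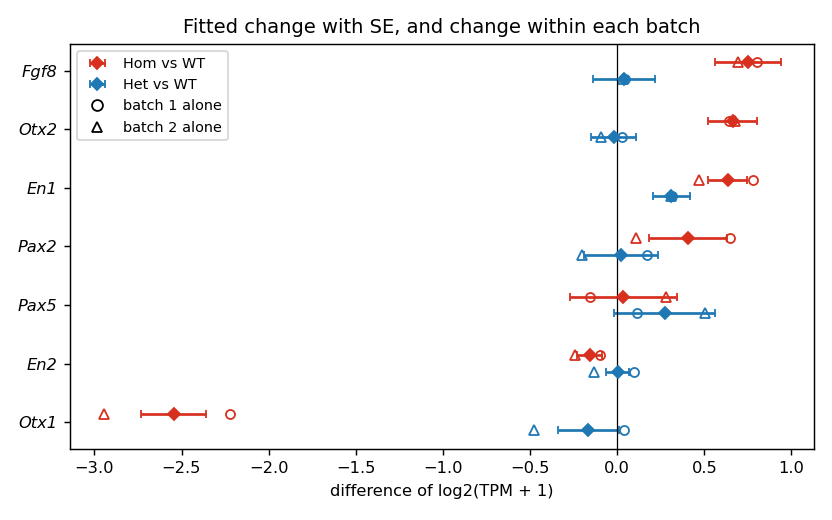
Difference of log2(TPM + 1) from WT (horizontal axis) for the 7 members that passed the filter, in Hom (red) and Het (blue). Filled diamonds are the fit over 14 libraries with bars of 1 SE, and open circles and triangles are batch 1 and batch 2 fitted alone; Otx1 lies near -2.5 in Hom, and Fgf8, Otx2 and En1 lie between 0.47 and 0.80 in either batch.

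In all, 7 of the 10 members passed the filter on low values (1 TPM or more in 4 or more libraries), and Gbx2, Pax8 and Fgf17 did not. None of the 7 owed this to the libraries labelled Hom alone. The fit called 3 of the 7 in Hom against WT at an adjusted p under 0.05 (Otx1 lower, Otx2 and En1 higher), where 2.68% of all 17325 genes tested were called in either direction. Groups did not overlap in TPM for 4 of the 7 (Otx1, Otx2, En1 and Fgf8), against 4.87% of all genes tested. The members were chosen with these values in view, so nothing is read from the counts. Otx2 was not called in 7 of 29 alternative fits: batch 2 alone, without WT 3, WT 4, Hom 1 or Hom 4, with endothelial and Purkinje marker covariates, and without WT 1 to 3 and Het 3. En1 was not called in 5 of 29: either batch alone, without the batch term, with the replicate block, and without WT 1 to 3 and Het 3. In Het against WT, which shares its WT libraries with the Hom comparison, 0 of the 7 were called and 0 had groups that did not overlap, where 0.00577% and 1.04% of all genes did. Against Het, the change in Hom was -2.38 (SE 0.19) for Otx1, 0.68 (SE 0.14) for Otx2, 0.71 (SE 0.19) for Fgf8 and 0.32 (SE 0.11) for En1. There 1 of the 7, Otx1, was called, where 0.427% of all genes were. Groups did not overlap for Otx1, Otx2, En2 and Fgf8, against 2.16% of all genes.

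The wider patterning pathway was then examined through lists of 63 other genes, of which 38 could be tested. Besides isthmic and FGF8 signalling genes, these lists hold 12 granule lineage transcription factors and 12 Hox genes. In Hom against WT, limma called 3 of the 38 lower and 0 higher (adjusted p under 0.05), with a median log2 change of -0.09, where 1.41% of all tested genes were lower, 1.27% were higher and the median was 0.02. That count was 1 in batch 1 alone, and 0 in batch 2 alone, in the fit of WT and Hom libraries only and with the replicate number as a block. In Het against WT 0 of the 38 were called, with a median of -0.02 beside 0.01 for all genes. The 3 calls in Hom against WT comprised 2 of 12 granule lineage factors and 1 of 14 genes of FGF8 signalling. Of the 23 genes of the isthmic organiser and neural plate regionalisation, 12 were tested and 0 called. This list holds Wnt1, a midbrain signal, which was at most 0.05 TPM in any library. It also holds Cnpy1, which lies 28653 bp from En2 and encodes a regulator of FGF signalling. Cnpy1 was abundant, at 230 ± 16.9 TPM in WT (SD, n = 5) and 205 ± 37.8 in Hom (n = 4), and its log2 change of -0.17 (SE 0.09) had a limma adjusted p of 0.455. Pax3, named after its values were seen, encodes a paired-box factor of the dorsal neural tube and had a log2 difference of 0.47 (SE 0.14) with a limma adjusted p of 0.117.

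Of the 16 genes of FGF8 signalling (ligands, receptors, targets and inhibitors), 14 were tested, and 10 had a change below 0 in Hom. Flrt3, which encodes a membrane protein that binds FGF receptors, was the only one called. It fell from 25.1 ± 6.54 TPM in WT (SD, n = 5) to 14.9 ± 2.37 in Hom (n = 4), with limma giving -0.70 on the log2 scale (SE 0.16) at an adjusted p of 0.0353, and the groups did not overlap. The fall was smaller in batch 1 (-0.33) than in batch 2 (-1.15), and the call was lost in 12 of 29 alternatives (adjusted p from 0.00555 to 0.348 over all 29). The losses included the fits without WT 2, WT 3, WT 4, WT 5, Hom 1, Hom 3 or Hom 4. In Het the log2 difference of Flrt3 was -0.36 (limma adjusted p 0.762). Etv4, an ETS factor induced by FGF signals and named after its values were seen, had a log2 difference of -0.65 (SE 0.23) in Hom at a limma adjusted p of 0.198.

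Among the 12 granule lineage transcription factors, all of which were tested, Barhl2 and Neurod1 were called lower in Hom and 0 higher. Barhl2, a BarH-type homeobox gene of the rhombic lip lineage, went from 64.3 ± 15.9 TPM in WT (SD, n = 5) to 44.4 ± 6 in Hom (n = 4), which limma put at -0.53 on the log2 scale (SE 0.10) with an adjusted p of 0.0139. Its change was -0.36 in batch 1 and -0.76 in batch 2, and its groups overlapped. Neurod1, a basic helix-loop-helix factor of granule neuron differentiation, fell from 816 ± 142 to 553 ± 40.8 TPM, by 0.55 on the log2 scale (SE 0.10) with a limma adjusted p of 0.0116. Both calls were lost in either batch alone, in the fit of WT and Hom only and with the replicate block, and that of Barhl2 also without the batch term (adjusted p from 0.000797 to 0.181 for Barhl2 and 0.000449 to 0.177 for Neurod1 over 29 alternatives).

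**Figure D4:**
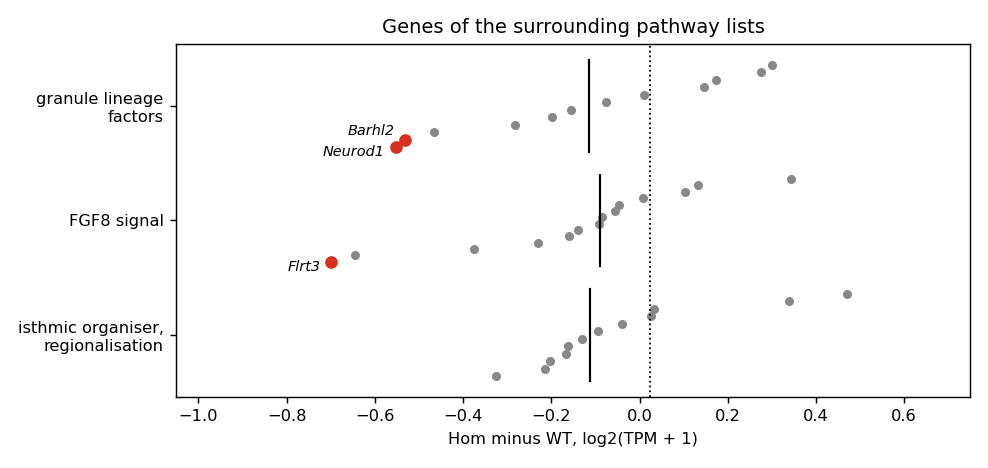
Hom minus WT difference of log2(TPM + 1) (horizontal axis) for each tested gene of 3 pathway lists, with 1 point per gene, red and named where called at an adjusted p under 0.05, a black line at each list's median and a dotted line at the median of all genes tested (0.02). Flrt3, Barhl2 and Neurod1 are the genes called, and no gene right of the dotted line was.

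The neighbourhood of the members was also examined, using all annotated genes within 50000 bp of a member. Of 40 such genes, 29 were in the table and 16 could be tested, and 0 were called in Hom or in Het against WT, with adjusted p of at least 0.182 and 0.812. The noncoding 2610027F03Rik, 13748 bp from En1 on the same strand, was under 1 TPM in every library and not tested. Its mean was 0.61 TPM in Hom and 0.14 in WT, and these groups did not overlap, as for 4.87% of all genes tested. At an unadjusted p under 0.05, limma gave Dmtn, which lies beside Fgf17, in both comparisons. Its change was -0.36 in Hom (limma p 0.0124) and -0.26 in Het (limma p 0.0439), and the comparisons share their WT libraries. Of all 17325 genes tested, 1112 were lower and 1475 higher in Hom at this unadjusted threshold. In Het 499 were lower and 555 higher, so nothing is read from Dmtn. Ehbp1, which lies 2931 bp from Otx1 on the same strand and encodes an endocytic adaptor, was at 38.1 TPM in WT and 39.2 in Hom, a change of 0.04 (SE 0.09, limma adjusted p 0.872). The noncoding Otx2os1 overlaps exons of Otx2 on the opposite strand. It was at 1.02 TPM in WT and 1.54 in Hom, with a change of 0.34 (SE 0.25, limma adjusted p 0.566). The study counted with default RSEM parameters, which use no strand, so reads of Otx2 and Otx2os1 cannot be told apart where they overlap.

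Genes whose pattern most resembled the Otx genes were sought by Pearson correlation of batch-corrected log2(TPM + 1) over the 14 libraries, among 12301 genes with a mean of at least 5 TPM. These values describe likeness only, and the libraries share the genotype difference by which the members were chosen. Closest to Otx1 were Optn (0.962), Cadps2 (0.948), Slitrk5 (0.948) and Gprin3 (0.946). Optn, which encodes the autophagy receptor optineurin, averaged 51.4, 50.1 and 26.8 TPM in WT, Het and Hom, so that like Otx1 it was similar in WT and Het. Cadps2, which encodes a priming factor of dense core vesicles, stepped down through Het instead, from 184 to 130 and 48.7 TPM. Closest to Otx2 were Mical2 (0.934), Nptx1 (0.926), Nectin1 (0.885) and Ntrk3 (0.884). Ntrk3, the receptor for neurotrophin 3, averaged 20.6, 24.6 and 38.6 TPM in WT, Het and Hom.

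Markers of other cell types moved with the libraries and are given beside the members. In bulk RNA, fewer cells of a type and less RNA per cell cannot be told apart. Purkinje cell markers (7 genes) summed to 146 to 196 TPM in WT 1 to 3 and 89.4 in Het 3, and to 54.8 or less in every other library. All 7 had a change below 0 in Hom (median -0.94) and in Het (median -0.91). Within batch 2 alone the Hom change was above 0 for Calb1, Car8, Itpr1, Pvalb and Slc1a6, and below 0 for Pcp2 and Pcp4. Over all libraries Pcp4 was called in Hom (-1.73, limma adjusted p 0.00914). That call was lost in batch 2 alone, with the replicate block and without WT 1 to 3 and Het 3, and the change ran from -2.41 to -0.78 over 29 alternatives (adjusted p from 0.00112 to 0.181). Endothelial markers (7 genes) summed to 27.7 to 37.7 TPM in WT 1 to 3 and 21.1 in Het 3, and to at least 118 elsewhere. All 7 had a change above 0 in Hom (median 1.52) and in Het (median 1.05), with 0 of 7 called in either. Leaving out WT 1 to 3 and Het 3 gave Hom changes of -2.87 for Otx1, 0.64 for Otx2, 0.56 for En1 and 0.71 for Fgf8. That fit no longer called Otx2 or En1, but its only WT libraries were WT 4 and WT 5, both of batch 2. With the mean levels of endothelial and Purkinje markers as covariates the changes were -2.65, 0.61, 0.65 and 0.80, and Otx2 was not called.

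Choroid plexus, which expresses Otx2, was represented by 11 markers. Their sum ran from 51 to 589 TPM in WT, from 41.1 to 214 in Het and from 51.7 to 117 in Hom. The defining marker Ttr was at 488 TPM in WT 1 and at 2.46 to 23.7 in the libraries labelled Hom, while Otx2 was at 80.42 in WT 1. Of the 6 markers tested, 4 had a change below 0 in Hom and 2 above 0, with a median of -0.17. Clic6, a chloride channel gene of the list, was the only one called. It rose from 1.88 ± 0.545 TPM in WT (SD, n = 5) to 10.1 ± 1.33 in Hom (n = 4), a change of 1.95 (SE 0.16, limma adjusted p 2.36e-05), and was at 4 ± 0.629 in Het (n = 5). It was not called in batch 2 alone (adjusted p 0.0531, and from 2.1e-05 over 28 alternatives). Inhibitory interneuron precursors, which express Pax2, had marker sums (9 genes) of 211 to 356 TPM in WT, 219 to 289 in Het and 205 to 286 in Hom. With their mean level as a covariate the Hom change of Pax2 was 0.31. Lhx1, 1 of the 9 genes, averaged 160 TPM in WT and 117 in Hom, a large part of the marker sums. Of the 8 genes of this list that were tested, 7 had a change above 0 in Hom. The median change over the 8 was 0.12. Lhx1 was the 1 below 0 and alone was called, at -0.45 in Hom on the log2 scale (limma adjusted p 0.0408). That call was lost in 16 of 29 alternatives (adjusted p from 0.00275 to 0.25), among them either batch alone, no batch term, the replicate block and the fits without WT 2, WT 3, WT 4, WT 5, Het 1, Het 5 or any of the 4 Hom libraries. Astroglial markers (7 genes) all had a change below 0 in Hom, with a median of -0.86 and 0 called, and summed to 406 to 1807 TPM in WT and 329 to 678 in Hom. All 7 were below 0 in Het too, with a median of -0.37. Their sums were 1157 to 1807 TPM in WT 1 to 3 and 1125 in Het 3, against 860 in WT 4 and 406 in WT 5. In Hom 0 of 6 markers each of oligodendroglia, meninges and microglia were called, with median changes of 0.24, 0.15 and 0.17. Of unipolar brush cell markers 3 of 4 were tested and 0 called (median 0.28), and of midbrain neuron markers 1 of 8, Pou4f1, was tested and was not called (0.22, limma adjusted p 0.644).

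**Figure D5:**
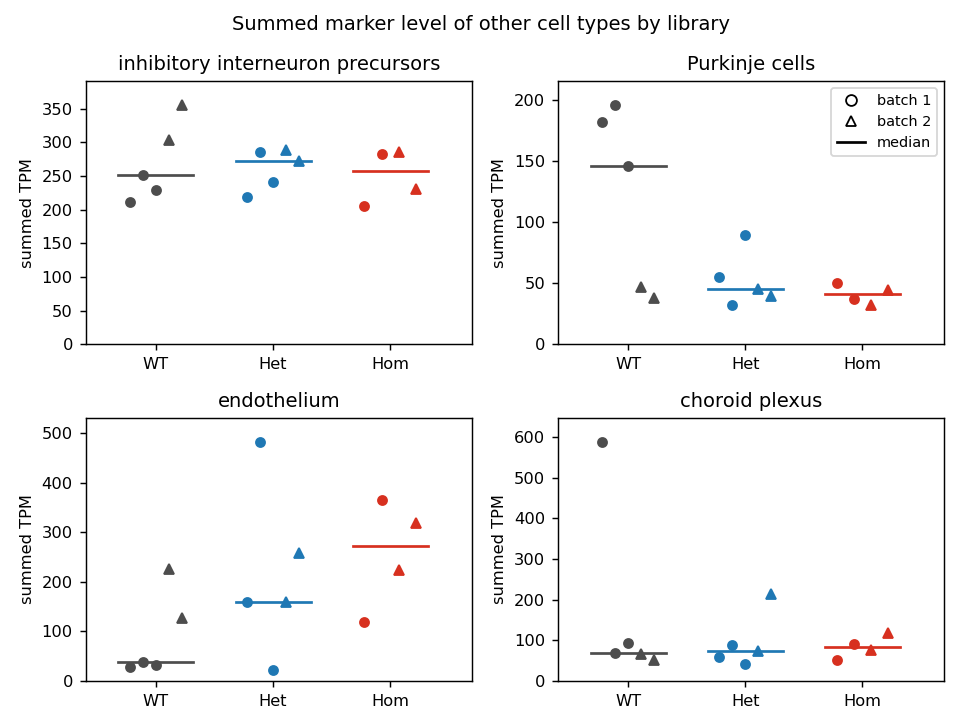
Summed TPM (vertical axis, from 0) of markers of 4 other cell types in each library by genotype label, with circles for batch 1, triangles for batch 2 and a line at the group median. Purkinje markers are high and endothelial markers low in WT 1 to 3 and Het 3, and choroid plexus markers peak in WT 1 at 589.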

How the data were processed

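RNA sequencing of 14 libraries of P7 GNPs was analysed. The authors mapped reads to the mm10 transcriptome and estimated gene levels with RSEM on Bowtie alignments (versions 1.2.15 and 1.0.0 per the submitters' processing notes), and deposited TPM values per gene. TPM keeps no read depth, so no counting interval is given. Columns named Con were taken as the WT library of the same number. Batches follow the study's methods, and the title style, which puts Het 3 in the later batch, was an alternative. The study removed batch effects with ComBat before testing, whereas batch was a term of the fit here.

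Symbols were matched for 40254 of 41381 identifiers. Genes with a TPM of 1 or more in 4 or more libraries were fitted on log2(TPM + 1) with limma 3.58.1 in R 4.3.3 (genotype and batch, trend, all 14 libraries), with Benjamini-Hochberg adjustment over 17325 genes and a threshold of 0.05. The pseudocount understates changes of low genes. The fit was tested on simulated data. Positions are from GENCODE M21 (GRCm38) and promoter windows from RefSeq (GRCm38.p6). The members and lists were chosen with earlier results of these data known, so the members carry no p-value and the tests of list genes are not independent evidence.

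Named genes were the members, Chd7, up to 3 called genes per pathway list and direction, the 4 genes most like each Otx gene, and markers at or near 0 or moving with a member. Genes outside this rule were named after their values were seen. Alternatives covered the pseudocount, filter, scaling, batch, libraries left out, the replicate block and an exact Kruskal-Wallis test of WT, Het and Hom together. Those using marker covariates or leaving out WT 1 to 3 and Het 3 were added after seeing the data. Leaving out these libraries keeps only WT 4 and WT 5 in WT, both of batch 2.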

Additional observations from a re-analysis of the deposited data

Results flagged for a closer look

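Each member was examined for a library standing apart in its group, 30 groups in all, of which chance flags about 1 in 20. In 2 groups a library stood apart. Pax8 was at 0.28 TPM in Het 1, where the other Het libraries had at most 0.03. Pax8 was also at 0.24 TPM in Hom 1, where the other Hom libraries had at most 0.02. Both values lie under the filter on low values.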

How the results depend on the processing

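In Hom against WT, 245 genes were lower and 220 higher. These became 80 and 82 in batch 1 alone and 4 and 0 in batch 2 alone. They were 123 and 136 with only the groups compared, and 109 and 59 without WT 1 to 3 and Het 3. The exact Kruskal-Wallis test after batch removal gave 102 and 106. It compares WT, Het and Hom at once, with the direction taken from the Hom against WT change, so it is no test of that pair alone. Without the batch term 163 were lower. Leaving out 1 library gave 147 to 248 lower and 137 to 241 higher. The lower count moved by over 1.5 times without WT 2 (160), WT 3 (162), Hom 1 (147) or Hom 4 (161). Without Hom 1 or Hom 4, 140 and 137 genes were higher.

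In Het against WT, 0 genes were lower and 1 higher (limma; 499 and 555 at an unadjusted p under 0.05). The lower count was 1 in either batch alone and 6 with endothelial and Purkinje marker covariates. The higher count was 3 with a pseudocount of 0.1 or 0.5, 2 without the batch term and in batch 1 alone, and 0 with the looser filter, a mean of at least 5 TPM, quantile normalization, only the groups compared, or without WT 1 to 3 and Het 3. Leaving out 1 library gave 0 to 6 lower and 0 to 7 higher, both highest without Het 2.

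In Hom against Het, 48 genes were lower and 26 higher. These became 27 and 14 without the batch term, 7 and 4 in batch 1 alone, 2 and 0 in batch 2 alone, 27 and 15 with only the groups compared, and 15 and 4 without WT 1 to 3 and Het 3. Leaving out 1 library gave 19 to 48 lower and 9 to 26 higher, both lowest without Hom 1. Of the genes of the pathway lists, which include the granule lineage factors, 3 were called in Hom against WT. That count was 1 in batch 1 alone, 0 in batch 2 alone, 0 with only the groups compared, and 5 with either set of marker covariates. Leaving out 1 library gave 2 to 3. The causes were not tested.

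The sample titles do not say whether equal replicate numbers pair libraries. The correlations given here cannot decide it, since differently numbered pairs were not compared. Of 13 same-numbered pairs 3 had a correlation of deviations over 0.1, and the range was -0.235 to 0.264. With the replicate number as a block, 144 genes were lower and 115 higher in Hom against WT, 0 were higher in Het against WT, 10 were lower and 8 higher in Hom against Het, and 0 pathway genes were called in Hom against WT.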
